A study of Mus musculus with 22 samples.

Results

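Expression of the Fraser complex genes Fras1, Frem1, Frem2 and Frem3, of the adaptor gene Grip1 and of nephronectin (Npnt) is described in mpkCCD cells, an immortalised mouse cell line of renal cortical collecting duct origin. The 6 genes were taken by symbol from a deposited table of 54514 gene entries, and each had 1 line of its own. The set was chosen by the dDAVP response of the wild-type cells, in which Fras1 had the largest fall, so the members' dDAVP values below are a description and carry no test. The labels describe 22 RNA-seq libraries in 10 groups. Wild-type (WT) cells were unsorted and had no dDAVP (3 libraries) or dDAVP (3 libraries). The drug dDAVP is desmopressin, a synthetic vasopressin analogue that acts on the V2 receptor. In the reporter clones, named C1, C11, C43 and C50, every library came from dDAVP-treated cells that were either GFP-positive or GFP-negative, with 2 libraries of each kind in each clone. Each clone is a single line, and the promoter that drives GFP and the dDAVP dose and time of each library are not given in the sources used here. All cells shared growth on permeable supports and a serum-free medium with dexamethasone. By its title, the series asks how aquaporin-2 levels vary from cell to cell.

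Fras1, Frem1 and Frem2 are large extracellular proteins that assemble into a complex in the basement membrane under developing epithelia. Loss of any of them loosens epithelium from the tissue below it, and mutations of human FRAS1, FREM2 or GRIP1 cause Fraser syndrome, in which kidneys can be missing. Grip1 is an intracellular PDZ-domain protein that helps to bring Fras1 and Frem2 to the basal cell surface, and Frem3 is a related matrix protein. Nephronectin is a matrix ligand of the integrin formed by Itga8 and Itgb1. It is made by the ureteric bud, from which the collecting duct derives, is held in the basement membrane with the help of the Fraser complex, and supports Gdnf expression in the surrounding mesenchyme.

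Levels are TPM, an abundance corrected for transcript length and scaled to the same total in every library. Aquaporin-2 (Aqp2), the vasopressin-regulated water channel, went from 69.1 ± 5.44 TPM in WT cells without dDAVP to 2868 ± 139 TPM with it (SD, n = 3 each), and GFP was between 1065 and 1567 TPM in the GFP-positive libraries against 5.31 to 17.6 TPM in the GFP-negative ones, so both followed the labels. Sequencing depth is unknown because TPM keep none. The libraries fell into a set of 10 with 17177 to 20250 entries above 0 TPM and a set of 12 with 23135 to 31292, and both sets hold libraries of both conditions and fractions. All 6 epithelial markers and 9 of 11 principal cell markers had a mean of at least 1 TPM, while 0 of 8 fibroblast, 0 of 3 endothelial and 0 of 3 leukocyte markers did. So did 4 of 6 urothelial, 2 of 7 intercalated cell and 1 of 4 proximal tubule markers, and 0 of 3 each for podocytes and the thick ascending limb. The labels name replicates without saying that they were separate cultures, so p-values measure only the spread between these libraries.

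The RefSeq promoter table (build GRCm38.p6) holds windows from 250 bases before to 50 bases after a start site for 5 of the 6 genes. Frem2 and Npnt are shown because they are the genes with both a window and a level above 1 TPM. Their windows are chr3:53657306-53657605 and chr3:132950242-132950541, both on the minus strand, and capitals mark GC boxes (GGGCGG, or CCGCCC on the other strand).
Frem2: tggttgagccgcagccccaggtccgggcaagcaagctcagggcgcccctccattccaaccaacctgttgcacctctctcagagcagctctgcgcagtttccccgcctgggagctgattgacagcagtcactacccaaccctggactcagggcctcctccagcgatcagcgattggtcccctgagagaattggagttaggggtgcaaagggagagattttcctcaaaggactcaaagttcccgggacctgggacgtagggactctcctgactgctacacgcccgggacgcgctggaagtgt
Npnt: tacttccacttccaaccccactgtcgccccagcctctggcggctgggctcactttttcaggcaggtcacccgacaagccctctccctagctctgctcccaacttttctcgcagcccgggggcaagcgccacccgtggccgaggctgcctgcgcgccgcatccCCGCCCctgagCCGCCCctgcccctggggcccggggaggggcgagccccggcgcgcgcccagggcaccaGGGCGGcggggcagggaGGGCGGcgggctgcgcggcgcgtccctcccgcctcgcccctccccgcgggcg
The Npnt window, the first of its 2 start sites, held 4 GC boxes at a GC content of 76.7%, and the Frem2 window held none at 60.3%. Over all 32851 windows, 35.7% held a GC box and the median GC content was 52.7%. Neither printed window held the cAMP response element TGACGTCA, its shorter form TGACG or the TATA box TATAAA on either strand. The second Npnt window, chr3:132949765-132950064 on the minus strand, held 1 TGACG and no GC box at a GC content of 68.0%. The cAMP response element, its shorter form and the TATA box were in 1.79%, 20.8% (those with TGACGTCA included) and 13.6% of all windows. These letter matches describe the windows only.

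Levels of the 6 genes spanned a wide range. Npnt was among the abundant transcripts, with a mean of 424 TPM over the 22 libraries, rank 365 of 42165 entries above 0. Fras1 and Frem2, the partners that form the core of the complex, had nearly equal means of 17.2 and 16.9 TPM, ranks 7288 and 7337. The remaining members were near 0. Frem1, the third protein of the complex, reached at most 0.43 TPM, Frem3 at most 0.16 TPM and the adaptor gene Grip1 at most 0.85 TPM. Fras1 and Frem2 also share long transcripts, the longest in GENCODE vM21 being 15848 and 12348 bases, against 4619 bases for Npnt.

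**Figure D1:**
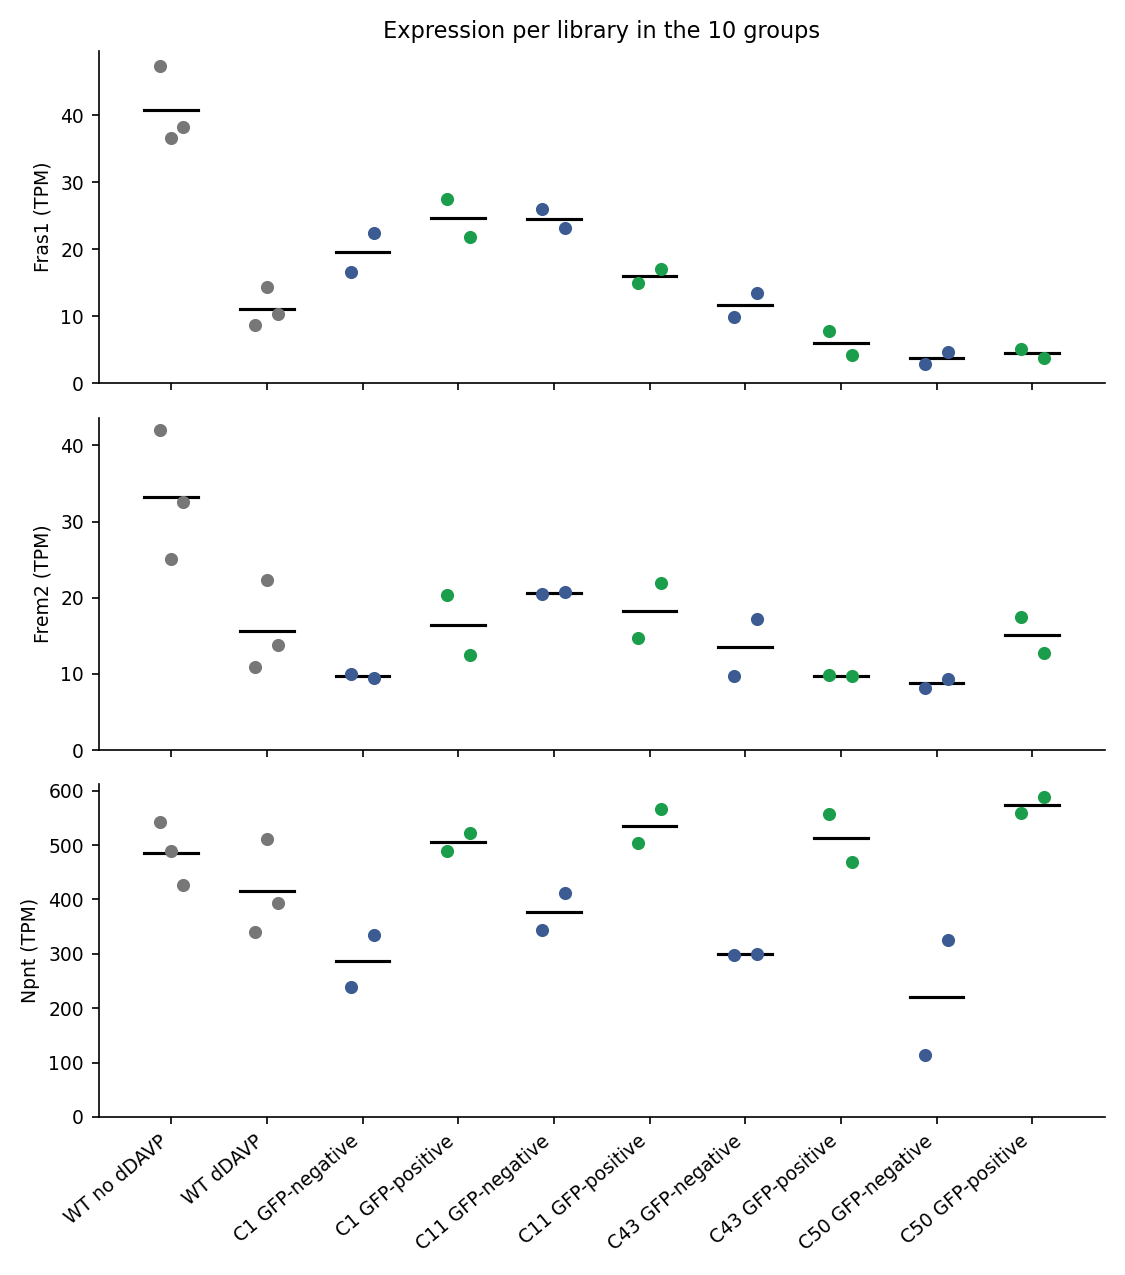
TPM (y axes, linear, from 0) of Fras1, Frem2 and Npnt in each of the 22 libraries, by group; points are libraries (grey WT, blue GFP-negative, green GFP-positive) and bars are group means. WT cells without dDAVP had the highest Fras1 and Frem2 means, while Npnt was higher in the GFP-positive than in the GFP-negative libraries of each of the 4 clones.

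Fras1 was highest in WT cells without dDAVP, at 47.4, 36.6 and 38.3 TPM. With dDAVP the libraries had 8.75, 14.4 and 10.3 TPM. The 3 dDAVP libraries all lay below the 3 others, as was the case for 28.7% of the 13494 genes tested in this comparison. The means were 40.8 ± 5.82 and 11.2 ± 2.94 TPM (SD, n = 3 each), 3.65-fold lower with dDAVP, a difference of -1.80 on the log2(TPM + 1) scale. These are bulk libraries, in which fewer expressing cells and less RNA per cell cannot be told apart. Within the libraries with fewer entries detected, the values were 38.3 TPM without and 8.75 TPM with dDAVP, and the rest gave 36.6 and 47.4 TPM against 10.3 and 14.4 TPM.

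Frem2 had 42.0, 25.1 and 32.5 TPM without dDAVP and 10.9, 22.3 and 13.8 TPM with it. The groups did not overlap, but the highest dDAVP library came close to the lowest library without. Its means were 33.2 ± 8.46 and 15.7 ± 5.94 TPM (SD, n = 3 each), 2.12-fold lower with dDAVP and -1.06 on the log2(TPM + 1) scale. Npnt had 542, 490 and 427 TPM without and 340, 512 and 394 TPM with dDAVP. These ranges overlapped, and the means of 486 ± 57.5 and 415 ± 87.9 TPM (SD, n = 3 each) differed by -0.24 on the log2 scale, or by -0.40 to -0.11 without 1 library. Over all genes tested in WT cells the median difference was -0.16, and 8.88% of genes were called at a Benjamini-Hochberg adjusted p under 0.05 by limma, of which 26.7% were higher. Median-ratio scaling of the libraries brought that median to -0.000386 and the share of calls that were higher to 59.6%. With that scaling the difference was -1.64 for Fras1, -0.90 for Frem2 and -0.07 for Npnt. A correction for transcript length gave -1.39, -0.68 and 0.00939, so that the sign for Npnt turned.

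No clone fraction reached the Fras1 level of WT cells without dDAVP, the high side of the comparison that chose the set. All clone libraries came from dDAVP-treated GFP fractions, while WT cells were unsorted. Treatment, sorting and clone cannot be told apart between the clones and WT cells without dDAVP. The GFP-negative libraries, in which Aqp2 was lower than in the GFP-positive libraries of the same clone, had 16.6 and 22.5 TPM in C1, 26.0 and 23.2 TPM in C11, 9.96 and 13.5 TPM in C43, and 2.93 and 4.61 TPM in C50. The GFP-positive libraries had 27.6 and 21.9 TPM in C1, 15.0 and 17.1 TPM in C11, 7.74 and 4.29 TPM in C43, and 5.16 and 3.78 TPM in C50. Values were high in C1 and C11 and low in C50 in both fractions. In order of mean level, WT cells without dDAVP stood above all other groups with no overlap, followed by the GFP-positive fraction of C1 and the GFP-negative fraction of C11, which overlapped. Among the 9 pairs of neighbours in the order of the 10 groups, 4 did not overlap and 5 did. At the bottom, the GFP-positive fraction of C43 lay below WT cells with dDAVP without overlap and overlapped with the GFP-positive fraction of C50, as that did with the GFP-negative one.

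Over the 4 libraries of each clone, Fras1 had 22.1 ± 4.50 TPM in C1, 20.3 ± 5.15 TPM in C11, 8.88 ± 3.87 TPM in C43 and 4.12 ± 0.975 TPM in C50 (SD, n = 4 each). C1 and C11 both lay above C43 and C50 with no overlap of libraries. The share of all genes that separate the clones in this way was not counted. The 4 clones differed for Fras1 in a moderated F-test with the fraction as a covariate (F = 30.9, limma adjusted p = 5.66e-05), and 28% of the 13113 genes tested were called in that test. Its adjusted p ranged from 2.43e-06 to 0.000276 over the alternatives tried. Comparisons between single clones were added after these values were seen. C50 minus C1 was -2.17 on the log2 scale (SE 0.262, limma adjusted p = 5.06e-05, 21.2% of genes called) and C50 minus C11 was -2.05 (adjusted p = 0.000181, 6.89% called). C43 minus C1 was -1.30 (adjusted p = 0.00264, 22.9% called) and C43 minus C11 was -1.17 (adjusted p = 0.0223, 3.32% called). The pair of C50 and C43 (-0.88, adjusted p = 0.0626, 6.77% called) and that of C11 and C1 (-0.13, adjusted p = 0.801, 18.9% called) did not pass the threshold.

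The GFP fractions did not give a called difference in Fras1. The GFP-positive fraction had 12.8 ± 8.96 TPM and the GFP-negative fraction 14.9 ± 8.68 TPM (SD over the 4 clones together, n = 8 each). Both GFP-positive libraries lay below both GFP-negative ones in C11 and C43, and the fractions overlapped in C1 and C50. How many of all genes separate within a single clone was not counted. With the clone as a covariate the difference was -0.23 on the log2 scale (SE 0.186, 95% interval -0.63 to 0.16, limma adjusted p = 0.366), lower in 6 of 8 pairs of libraries with the same clone and number. The two-sided exact permutation of fraction labels within clones gave p = 0.270 (0.324 adjusted over the 3 members tested). Across all genes 35.3% were called in this comparison, of which 34.2% were higher in the GFP-positive fraction (50.9% after median-ratio scaling). In the 8 clone libraries with more entries detected the Fras1 difference was -0.44 (adjusted p = 0.0428), and in the 8 with fewer it was -0.05 (adjusted p = 0.964). Each of these sets holds both fractions of 3 clones, C11, C43 and C50 in the first and C1, C43 and C50 in the second. The clones thus differ in part between the sets. In C43 the GFP-negative and GFP-positive libraries had 9.96 and 7.74 TPM in the first set, and 13.5 and 4.29 TPM in the second. In C50 they had 4.61 and 3.78 TPM in the first and 2.93 and 5.16 TPM in the second, each value from a single library.

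Within C1, C11, C43 and C50, the Fras1 difference was 0.33, -0.59, -0.89 and 0.21 in that order (SE 0.279 each). Without 1 library it was 0.12 to 0.54 in C1 and -0.67 to -0.50 in C11. It was -1.25 to -0.53 in C43 and -0.0480 to 0.47 in C50, so that the C50 sign turned. None passed the threshold, the nearest being C43 with a limma adjusted p of 0.0508, where 16.3% of genes were called. That C43 difference passed without replicate 1 of its GFP-positive libraries (-1.25, adjusted p = 0.0213) and without replicate 1 or 2 of the GFP-negative C50 libraries (adjusted p = 0.0250 and 0.0235). The test of whether the 4 clones differed in this difference gave an adjusted p of 0.303, with 0.869% of genes called. Without replicate 2 of the GFP-negative C50 libraries that p was 0.0334, in a fit that called 5038 genes against 114 with all libraries.

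**Figure D2:**
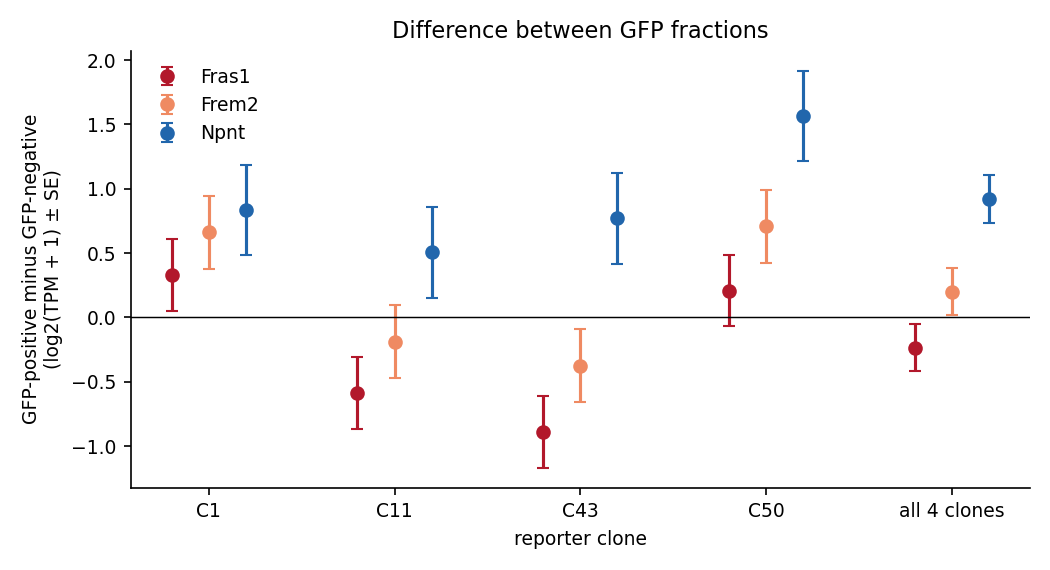
Difference between GFP-positive and GFP-negative libraries in log2(TPM + 1) (y axis, points with SE bars) for Fras1, Frem2 and Npnt, in each clone and over all 4 clones (x axis). Npnt lies above 0 in every clone, from 0.50 in C11 to 1.57 in C50, while Fras1 and Frem2 lie on both sides of 0.

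Frem2, whose product pairs with that of Fras1, varied less between clones. Its GFP-negative libraries had 9.97 and 9.52 TPM in C1, 20.5 and 20.8 TPM in C11, 9.79 and 17.2 TPM in C43, and 8.19 and 9.32 TPM in C50. The GFP-positive libraries had 20.3 and 12.6 TPM in C1, 14.7 and 21.9 TPM in C11, 9.89 and 9.70 TPM in C43, and 17.4 and 12.7 TPM in C50. The GFP-positive libraries were above the GFP-negative ones without overlap in C1 and C50, and overlapped with them in C11 and C43. The share of all genes that separate within a single clone was not counted. The difference between fractions was 0.20 on the log2 scale (SE 0.181, 95% interval -0.19 to 0.59, limma adjusted p = 0.432) and was higher in 6 of 8 pairs, with an exact permutation p of 0.324. In the 8 libraries with more entries detected it was -0.06 and in the 8 with fewer 0.47 (adjusted p = 0.833 and 0.524), with C11 contributing to the first and C1 to the second.

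Clone means of Frem2 were 13.1 ± 4.99 TPM in C1, 19.5 ± 3.21 TPM in C11, 11.7 ± 3.71 TPM in C43 and 11.9 ± 4.15 TPM in C50 (SD, n = 4 each). Clones did not pass the threshold for Frem2 (F = 3.52, limma adjusted p = 0.113). Without replicate 2 of the GFP-negative C43 libraries they did (F = 6.42, adjusted p = 0.0307). In the order of the 10 groups, WT cells without dDAVP ranked first for Frem2 as for Fras1, with no overlap with the next group, and 7 of the 9 pairs of neighbours overlapped for Frem2.

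The ratio of Fras1 to Frem2 TPM was not the same in the 4 clones. It was 1.23 in WT cells without dDAVP and 0.712 in those with dDAVP, and the lowest library of the first group (1.13) was above the highest of the second (0.803). For C1, C11, C43 and C50 in that order it was 2.00, 1.19, 0.869 and 0.431 in the GFP-negative fractions, and 1.51, 0.876, 0.614 and 0.297 in the GFP-positive ones. The ratio of means was lower in the GFP-positive fraction of each clone. In C1 the libraries overlapped, with 1.66 to 2.36 in the GFP-negative and 1.36 to 1.74 in the GFP-positive fraction. In C43 the lowest GFP-negative library (0.785) was close to the highest GFP-positive one (0.783). The libraries of the fractions did not overlap in C11 and C50. No test was made of this ratio, which was computed after the levels were seen. Over the 22 libraries, which share groups and processing, the log2 levels of Fras1 and Frem2 had a Pearson r of 0.730, and over the 16 clone libraries 0.557. The r of Fras1 with Npnt was 0.289 over the 22 libraries, and 0.195 over the 16. With Aqp2 it was -0.696 over the 22 libraries, which include the dDAVP comparison that chose the set, and -0.530 over the 16 clone libraries.

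Npnt was higher in the GFP-positive fraction of every clone. In the GFP-negative libraries it had 239 and 334 TPM in C1, 344 and 411 TPM in C11, 299 and 300.4 TPM in C43, and 114 and 326 TPM in C50. In the GFP-positive libraries it had 489 and 523 TPM in C1, 504 and 566 TPM in C11, 557 and 469 TPM in C43, and 559 and 588 TPM in C50. Each of the 8 GFP-positive libraries was above each of the 8 GFP-negative ones, also between clones. The share of all genes that separate in this way was not counted. The lowest, median and highest GFP-negative libraries had 114, 313 and 411 TPM, and the GFP-positive ones 469, 540.1 and 588 TPM.

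The means were 296 ± 88.0 TPM in the GFP-negative and 532 ± 41.9 TPM in the GFP-positive fraction (SD, n = 8 each), a 1.80-fold difference. With the clone as a covariate this was 0.92 on the log2 scale (SE 0.187, 95% interval 0.52 to 1.32, limma adjusted p = 0.00148), higher in 8 of 8 pairs, as 8.88% of genes tested were. Of all genes tested, 12.1% were called higher in the GFP-positive fraction, and 6.72% had both GFP-positive libraries above both GFP-negative ones in every clone. The exact permutation within clones gave p = 0.00154, the smallest that its 1296 arrangements can give (0.00463 adjusted over the 3 members). Leaving out 1 library at a time gave differences of 0.72 to 1.00, the lowest without replicate 1 of the GFP-negative C50 libraries, the library at 114 TPM, where the adjusted p was 6.5e-06. In the 8 libraries with more entries detected the difference was 0.69 (adjusted p = 0.00992). In the 8 with fewer it was 1.19 but did not pass the threshold (adjusted p = 0.117), again with clones that differ in part between the sets.

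By clone, Npnt was 1.77-fold (C1), 1.42-fold (C11), 1.71-fold (C43) and 2.61-fold (C50) higher in the GFP-positive fraction. With all libraries, only C50 passed the threshold within its clone (1.57 on the log2 scale, SE 0.352, limma adjusted p = 0.00772), where 26.6% of genes were called. In C1 (0.84, adjusted p = 0.211, 7.22% of genes called), C11 (0.50, adjusted p = 0.483, 7.94% called) and C43 (0.77, adjusted p = 0.169) it did not. These calls rested on the C50 libraries, whose GFP-negative pair is the farthest apart and whose spread enters the error of all 4 clones. Without its replicate 1 the C50 difference was 0.81 (adjusted p = 0.00858), and without its replicate 2 it was 2.32 (adjusted p = 6.52e-06). Npnt then passed the threshold in the other clones too, with adjusted p of 0.00366 in C1, 0.0391 in C11 and 0.00328 in C43 without the first, and 0.00325, 0.0369 and 0.00294 without the second. Without replicate 2 of the GFP-positive C50 libraries the C50 difference was 1.53 (adjusted p = 0.0515). A group left with 1 library is assumed to vary like the others. The fraction difference itself was not shown to differ between clones (adjusted p = 0.555). Without replicate 2 of the GFP-negative C50 libraries, which leaves the library at 114 TPM alone in its group, that p was 0.00168. The clones did not pass the threshold for Npnt (F = 0.886, limma adjusted p = 0.593, F of 0.451 to 2.40 without 1 library), with means of 396 TPM in C1, 456 TPM in C11, 406 TPM in C43 and 397 TPM in C50.

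In the order of group means, Npnt ran from 573 TPM in the GFP-positive C50 fraction to 219.8 TPM in the GFP-negative C50 fraction. All 4 GFP-positive fractions came first, both WT groups next and all 4 GFP-negative fractions last. Of the 9 pairs of neighbours only the GFP-negative fractions of C11 and C43 did not overlap. Over the 16 clone libraries Npnt had an r of 0.807 with GFP and 0.476 with Aqp2, as levels that share the fraction labels. Other cell markers also moved with the fraction. The summed level of the 6 urothelial markers was 203 to 560 TPM in GFP-negative and 479 to 1097 TPM in GFP-positive libraries, with 3 of 3 tested called higher, and that of the 11 principal cell markers, Aqp2 included, 620 to 3031 and 3161 to 10800 TPM, with 6 of 9 tested called higher and 1 lower. Of the intercalated cell markers 2 of 2 tested were called higher (sum of 7 markers 20.0 to 72.5 and 49.0 to 116 TPM), and of the proximal tubule markers 1 of 1 (sum of 4 markers 0.94 to 13.1 and 3.91 to 16.1 TPM), where 12.1% of all genes were called higher. Of the 6 epithelial markers 3 were called higher and 2 lower (sum 13430 to 15120 and 14860 to 17850 TPM). Their part in the Npnt result was not tested.

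Frem1, Frem3 and Grip1 were below the minimum mean of 1 TPM used for testing, so the 3 genes tested were Fras1, Frem2 and Npnt. Grip1, the trafficking adaptor, was above 0 in 13 of 22 libraries, Frem1 in 12 and Frem3 in 13. In the 10 libraries with fewer entries detected each of the 3 genes was above 0 in 1 library, and in the 12 with more it was Grip1 in 12, Frem1 in 11 and Frem3 in 12, as the sets themselves were made from the number of entries above 0. The genes Actb, Gapdh, Ppia, Tbp and Hprt, which every cell uses, were never listed at 0. In WT cells without dDAVP the lowest, median and highest Grip1 values were 0, 0.24 and 0.28 TPM, and with dDAVP 0, 0.40 and 0.75 TPM, which overlap. Frem1 had 0, 0.02 and 0.22 TPM without and 0, 0.40 and 0.43 TPM with dDAVP. When all 40321 genes with any TPM above 0 were tested between GFP fractions, the differences were -0.05 for Grip1, 0.04 for Frem1 and 0.01 for Frem3 on the log2(TPM + 1) scale, with limma adjusted p of 0.940, 0.868 and 0.959. At these levels the scale can hardly show a change.

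**Figure D3:**
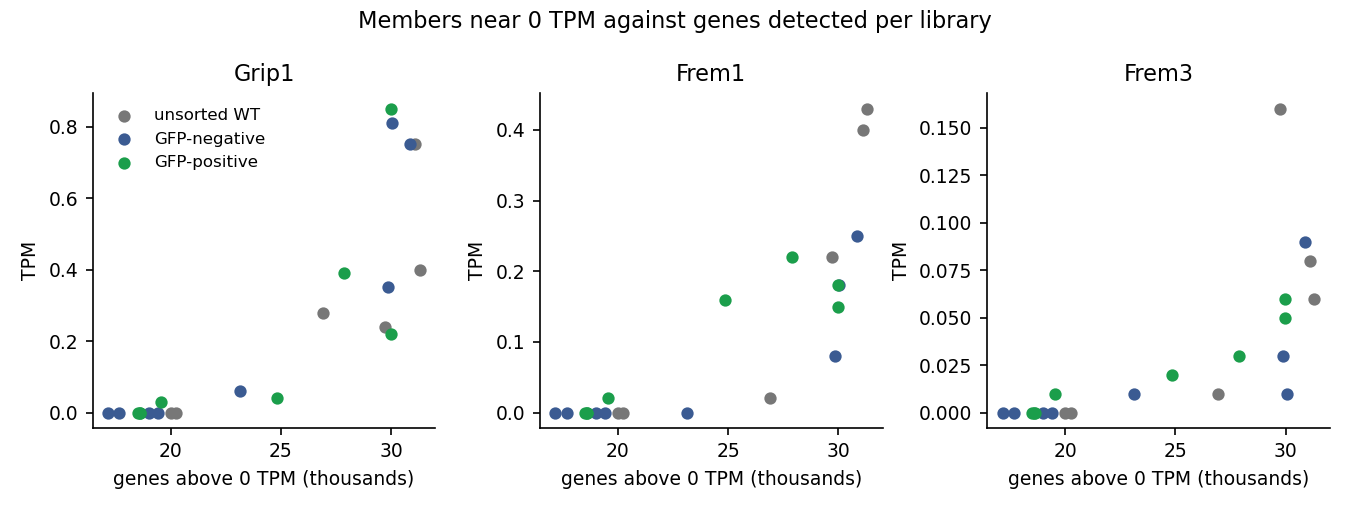
TPM of Grip1, Frem1 and Frem3 (y axes, linear) in each library against the number of entries above 0 TPM in that library (x axis); grey points are WT, blue GFP-negative and green GFP-positive libraries. The values above 0.05 TPM all lie among the 12 libraries with 23135 or more entries detected.

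Of 10 listed partners and processing enzymes of the complex, 4 passed the filter for testing. Vwa2, which codes for the basement membrane protein AMACO that binds the complex, had a mean of 9.35 TPM. Furin, a proprotein convertase, had 47.2 TPM and Efnb1, an ephrin ligand, 11.5 TPM. In WT cells 0 of 4 were called with dDAVP, in either direction, where 8.88% of all genes were. Between GFP fractions, 1 of 4 was called: Hmcn2, a hemicentin of the extracellular matrix, was lower in the GFP-positive fraction (4.27 ± 1.03 and 2.80 ± 0.904 TPM, n = 8 each; -0.48, limma adjusted p = 0.0339, 23.2% of all genes called lower), and the count was 0 under 20 of 32 alternatives. The other 6 genes, Hmcn1, Fbln1, Pcsk5, Pcsk6, Grip2 and Cspg4, each averaged under 1 TPM, from 0.010 TPM for Fbln1 to 0.676 TPM for Hmcn1.

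Of the nephronectin receptor chains, Itga8 was near 0 and Itgb1 was abundant. Itga8, the alpha chain, averaged 0.057 TPM and was listed at 0 in 14 of 22 libraries. Itgb1, the beta chain that it shares with other integrins, averaged 273 TPM, and Egfl6, the homologue of Npnt, 0.085 TPM. Of the 13 genes of the integrin list, 9 were tested between GFP fractions, with 3 called lower and 0 higher, against 23.2% and 12.1% of all genes. Itgb1 was 292 ± 62.9 TPM in the GFP-negative and 211 ± 34.2 TPM in the GFP-positive fraction (n = 8 each; -0.44, limma adjusted p = 0.0230), a direction opposite to that of Npnt. Itgb6, the epithelial beta chain, fell by 0.59 (adjusted p = 0.00645) and Itga5, a fibronectin receptor chain, by 0.82 (adjusted p = 0.0085). The count was 0 without clone C1, without clone C43 and in the libraries with fewer entries detected, and 1 gene was called higher with median-ratio scaling or the length correction. In WT cells 1 of 10 was called lower with dDAVP (6.51% of all genes were; the count was 3 without replicate 2 of the dDAVP libraries and 2 with a minimum mean of 5 TPM): Itgb6 went from 65.7 ± 4.44 to 37.9 ± 5.20 TPM (n = 3 each; -0.78, limma adjusted p = 0.00978). The list's median difference was -0.14 between fractions (all genes -0.06) and -0.24 in WT cells (all genes -0.16).

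The genes of the GDNF-RET axis, which drives branching of the ureteric bud in the embryonic kidney, were mostly near 0 or low: Gdnf, its receptor genes Ret and Gfra1, and the target Wnt11 averaged 0.040, 0.010, 0.229 and 0.010 TPM. The feedback inhibitor gene Spry1 was abundant, at 465 TPM. Of 8 genes 4 were tested, with 2 called lower and 0 higher in the GFP-positive fraction, where 23.2% of all genes were called lower and 12.1% higher. Both called genes passed the filter only through the GFP-negative fraction, in which they are high, so the count is no support for the list. Etv4, an ETS transcription factor gene, had a mean of 5.04 TPM in the GFP-negative and 0.0575 TPM in the GFP-positive fraction (n = 8 each; -2.48, SE 0.141, limma adjusted p = 2.12e-08). Its relative Etv5 fell by 0.97 (adjusted p = 0.00075). The count of 2 was 1 without clone C43, without replicate 2 of the GFP-negative libraries of C1, C43 or C50, or without replicate 1 of those of C43. It was also 1 in the libraries with fewer entries detected and 0 with a minimum mean of 5 TPM. In WT cells 1 of 4 was called lower (6.51% of all genes were), Eya1 (30.1 ± 4.21 to 17.4 ± 4.42 TPM, n = 3 each; -0.78, limma adjusted p = 0.0495), and that count was 0 under 10 of 13 alternatives. The median difference of the list was -0.67 between fractions and -0.21 in WT cells.

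Basement membrane genes, the matrix into which the Fraser complex and nephronectin are built, were lower in part in both comparisons. Of the 26 listed genes 16 were tested in each. Like the other lists, this one was chosen with earlier results of these data known, so its counts are no support for a shared response. With dDAVP in WT cells 9 of 16 were called lower and 0 higher, where 6.51% of all genes were called lower and 2.37% higher. The type IV collagen gene Col4a4 went from 17.4 ± 1.42 to 5.30 ± 0.305 TPM (SD, n = 3 each; -1.55, limma adjusted p = 0.000639). Col4a3 and Col4a5, the genes of the chains that assemble with it, fell by 1.15 and 1.00 (adjusted p = 0.0134 and 0.00653), and the collagen gene Col4a2 fell by 0.87 (adjusted p = 0.0278). The list's median was -0.67. The count rested on single libraries: it was 2 without replicate 3 of the dDAVP libraries, 4 without replicate 1 and 13 without replicate 2, and 3 without any one of the 3 libraries that had no dDAVP. Testing all genes with any TPM above 0 gave 5, and median-ratio scaling or quantile normalization gave 6. The summed level of the 6 epithelial markers was 10700 to 11870 TPM without and 15040 to 16300 TPM with dDAVP (3 of 6 called higher), that of the 6 urothelial markers 422 to 474 and 491 to 555 TPM (1 of 4 tested called lower), and that of the 4 proximal tubule markers 10.3 to 15.2 and 5.17 to 8.5 TPM (0 of 1 called). That of the 11 principal cell markers, Aqp2 included, was 951 to 1041 and 3896 to 4342 TPM (3 of 9 called higher, 2 lower). Their part in the WT differences was not tested.

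Between GFP fractions 9 of 16 were called lower and 0 higher, against 23.2% and 12.1% of all genes, with a list median of -0.49. The largest falls were in the laminin genes Lama3 (4.34 ± 3.45 to 0.504 ± 0.358 TPM; -1.64, limma adjusted p = 5.5e-05) and Lamb3 (50.3 ± 24.1 to 14.5 ± 4.44 TPM; -1.63, adjusted p = 1.6e-05), and in the collagen genes Col4a1 (-1.58, adjusted p = 5.75e-05) and Col4a2 (-1.54, adjusted p = 5.72e-05), n = 8 each. Lama3, under 1 TPM in the GFP-positive fraction, passed the filter only through the GFP-negative one, so its place in the count is no support for the list. Of the 9 genes called lower in each comparison 8 were called in both, 88.9% of each. Over all genes tested in both, 401 were called lower in both, 13.2% of the 3034 calls between fractions and 45.9% of the 873 in WT cells. The overlap itself was not tested, and its WT side rests on the libraries named above. The urothelial, intercalated and principal cell markers given beside Npnt moved with the same fractions, and their part in this list's result was not tested. The count between fractions was 9 in the libraries with more entries detected and 0 in those with fewer. With median-ratio scaling, quantile normalization or the length correction, 9 genes were called lower and 2 were called higher. At the deposited scale, Npnt differed between fractions in the direction opposite to the 9 called genes of this list.

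**Figure D4:**
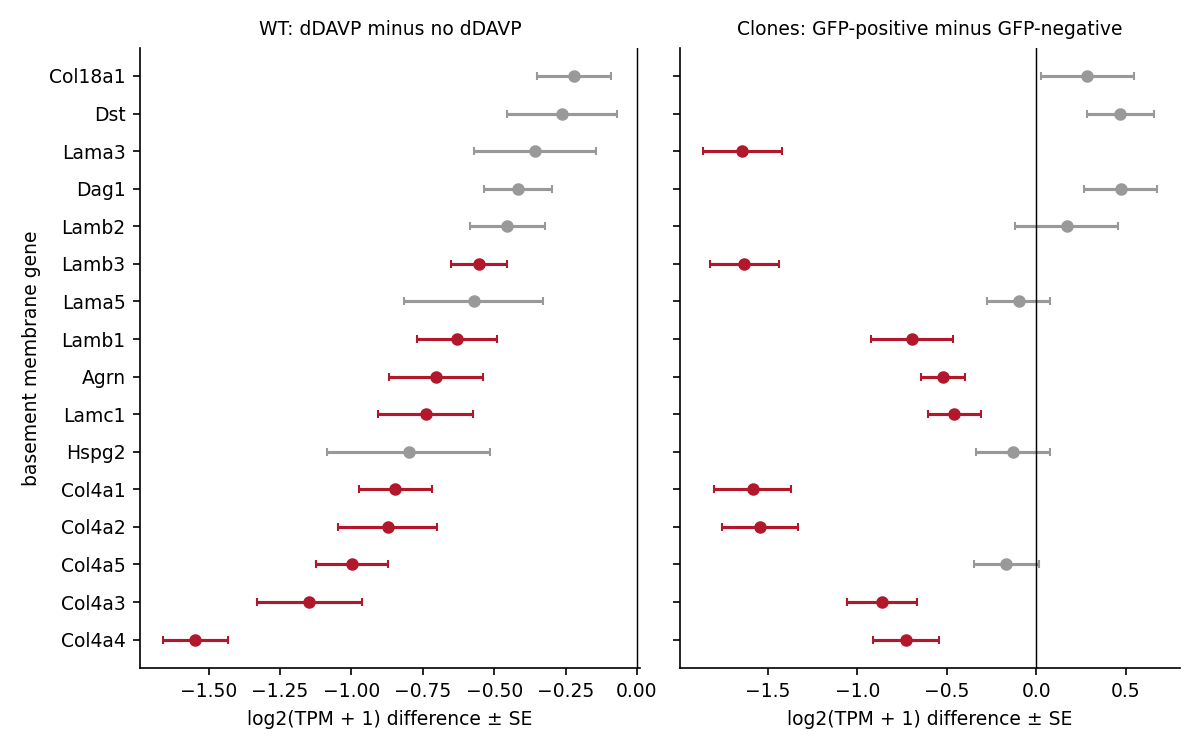
Differences in log2(TPM + 1) with SE bars (x axes) of the 16 tested basement membrane genes (y axis), for dDAVP minus no dDAVP in WT cells (left) and for GFP-positive minus GFP-negative in the clones (right). Red points passed an adjusted p of 0.05 and grey points did not; all 9 red points in each panel lie below 0.

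Genes with the most similar profile over the 22 libraries were taken by Pearson r of log2(TPM + 1) among 9601 genes with a mean of at least 5 TPM. For Fras1 these were Rnf168 (r = 0.938), Ubn1 (0.906), Slfn9 (0.903), Trmt2a (0.903) and Mcm2 (0.898). Each had its highest or near-highest level in WT cells without dDAVP and a lower level in C50, with a smaller range than Fras1: Rnf168 went from 89.9 TPM in WT cells without dDAVP to 47.5 TPM in the GFP-positive C50 fraction. For Npnt they were Rbl2 (0.968), Fgfr2 (0.966), Znfx1 (0.965), Slc44a1 (0.958) and Ermp1 (0.954). Fgfr2, a receptor for fibroblast growth factors, was lowest in the GFP-negative C50 fraction (66.6 TPM) and highest in the GFP-positive one (236 TPM), the same fractions that held the lowest and highest Npnt means. The genes were chosen for likeness over these same libraries, so sharing high and low groups with Fras1 or Npnt follows from that choice. The 22 libraries share groups and processing, and include the dDAVP comparison that chose the set.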

How the data were processed

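SMART-Seq HT cDNA from total RNA was made into Nextera XT libraries and sequenced from both ends, per the labels' protocols. The submitters' processing notes name STAR and RSEM without versions; the genome build and annotation are not given in the sources used here. The authors deposited TPM per gene and library in a table of 55415 lines, with group means, and a ratio of group means per comparison (fold values that were not used). Lines sharing a symbol were summed, which left 54514 entries; 0 pairs of libraries were identical.

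TPM keep no depth, so no count test or counting interval was made, and replicate spread is the measure of precision. Tests used limma 3.58.1 (statmod 1.5.0, R 4.3.3) with a mean-variance trend on log2(TPM + 1), a pseudocount of 1 that understates changes of low genes, over genes with a mean of at least 1 TPM, with Benjamini-Hochberg adjustment over all genes tested (threshold 0.05, two-sided). The fraction comparison used 16 clone libraries with the clone as covariate, the clone comparison the fraction as covariate, the comparisons within clones and the interaction a mean per clone and fraction, and the WT comparison 6 libraries. Scripts were tested on simulated data.

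All 6 members are named. Of each list, up to 4 of the largest called rises and falls are named, and the 5 genes most like Fras1 and Npnt, passing over provisional symbols. A pair of listed genes is not reported here and was left out of the list counts. The members and lists were chosen with earlier results of these data known. Alternatives covered the pseudocount, the filter, scaling, moderation, the replicate block, left-out libraries and clones, clone means, and the sets of libraries by entries detected; a transcript length correction, which had a length for 98.7% of the genes tested, and left-out libraries in the tests within clones were added after seeing the data.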

Additional observations from a re-analysis of the deposited data

How the results depend on the processing

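The number of genes called with dDAVP in WT cells (1198) was 442 with all genes above 0 TPM, 757 with median-ratio scaling, 122 with the replicate block, and 314 to 2038 without 1 library. Between fractions (4626) it was 2406 with clone means as replicates, 250 in the libraries with fewer entries detected and 4042 in those with more. For the interaction (114) it was 271 with the length correction and 42 to 5038 without 1 library, and between clones (3669) it was 2744 to 5889.

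Fras1 in WT cells was -1.39 with the length correction and Npnt there turned to 0.00939. Between fractions Npnt had an adjusted p of 0.117 at 1.19 in the libraries with fewer entries detected, and in those with more Fras1 passed the threshold at -0.44 and Frem2 turned to -0.0562. Without 1 library, the fraction difference was -0.32 to -0.11 for Fras1, 0.10 to 0.32 for Frem2 and 0.72 to 1.00 for Npnt. The clone F was 24.9 to 42.4 for Fras1 and 2.13 to 6.42 for Frem2, and the interaction F was 3.12 to 7.58 for Fras1 and 1.05 to 23.1 for Npnt. The differences within clones, left out 1 library at a time after the data were seen, were -1.25 to -0.53 for Fras1 in C43 and -0.0480 to 0.47 in C50, -0.46 to 0.0830 for Frem2 in C11 and -0.76 to 0.0006125 in C43, and for Npnt 0.60 to 1.08 in C1, 0.38 to 0.63 in C11, 0.64 to 0.89 in C43 and 0.81 to 2.32 in C50. The cause of these shifts was not tested.

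Replicate numbers do not pair the samples: deviations of same-numbered libraries correlated at -0.208, -0.0254 and -0.109 in WT cells and at 0.0544, 0.0151, 0.203 and 0.0825 in the clones. With the replicate block the fraction difference of Npnt was 0.92 (limma adjusted p = 0.00268), that of Fras1 -0.23 (0.449) and that of Frem2 0.20 (0.466), and in WT cells 1 of the basement membrane genes was called lower in place of 9, 0 of the integrin genes in place of 1 (Itgb6) and 0 of the GDNF-RET genes in place of 1. Hmcn2 was not called between fractions. It changed no call of a member. Depth is unknown, and 2 libraries per clone and fraction limit the within-clone tests.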
